A study of Mus musculus with 10 samples.

Results

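Microglia are the resident macrophages of the brain, and a smaller population of macrophages lines its vessels and coverings. The 35 genes described here mark these cells: receptors and enzymes of resting microglia, their growth factor receptor and lineage transcription factors, the complement C1q chains, Trem2 with its adaptors, toll-like receptors, and leukocyte surface and lysosomal proteins. They were chosen by name, from a list of 35 symbols, and each had 1 probe set that the platform annotation pairs with that gene alone, out of 18820 genes with a probe set of their own in the table as a whole. Of them 31 passed the filter on low values (above 4.32 in log2, which is 20 before taking logs, on 3 or more of the 8 arrays of single mice), and 12978 genes passed it in all. Gpr34, Cd14 and Aif1 were under that level on all 8 arrays and Fcrls passed it on 1, so these 4 were not tested and are given as values alone.

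RNA came from the hypothalamus of male CDF1 mice aged 10 to 11 weeks, all killed on day 20. Tumour-bearing mice had received 1000000 C26 adenocarcinoma cells, a colon tumour line that produces cachexia in mice, under the skin of the flank in 0.2 ml of Hanks' balanced salt solution (HBSS), and controls a sham injection of 0.2 ml HBSS. Individual arrays were run for 3 controls and 5 tumour-bearing mice. A pool of 4 control animals and a pool of 5 tumour-bearing animals had 1 array apiece, and it is unknown whether their RNA overlaps with that of the single mice, so they stand beside the comparison as values. The tumour is a transplanted cell line, taken at 1 dose and 1 day. Levels are log2 values made by the authors with RMA, and values in a sentence follow the order of the animals' numbers. Individual arrays had medians of 5.30 to 5.32 and correlated at 0.980 to 0.989 over tested probe sets, and the pools had medians of 5.27 (control) and 5.28 (tumour-bearing). Of 16 hypothalamic markers fixed in a list, 13 had a probe set of their own and all 13 passed the filter, among them Npy at 8.58 ± 0.24 (SD, n = 3) in controls. Of 9 midbrain markers 8 passed it too. Among them the dopamine transporter gene Slc6a3 was at 9.81 ± 0.10 (SD, n = 3) in controls and 6.19 to 9.67 in tumour-bearing mice.

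Microglia survey the tissue with fine processes, take up debris and synapses and respond to cytokines, purines and microbial products. On activation they typically lower their homeostatic receptor genes and raise genes of phagocytosis, lysosomes and antigen presentation. In peripheral inflammation and cancer cachexia, signals from the blood reach the hypothalamus, and microglia are one of the cell types that can receive them.

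In this hypothalamic RNA none of the 31 tested genes passed the threshold between tumour-bearing and control mice (limma, Benjamini-Hochberg adjusted across the whole filtered table, threshold 0.05, lowest adjusted p = 0.313 for Cd53). Over all genes 0.0771% were called. At an unadjusted p under 0.05 there were 3 members, Cd53 and Trem2 with lower means and C1qa with a higher mean in tumour-bearing mice, which is 9.68% of the tested members against 10.3% of all genes. The difference, tumour-bearing minus control, ran from -0.34 (Cd53) to 0.26 (C1qa) on the log2 scale. It was below 0 for 24 members and above 0 for 7, with a median of -0.082, beside 54.5% below 0 and a median of -0.010 for all genes tested. Since the genes share cells and RNA, they do not move independently, and no test was made over the list.

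The absence of calls does not show that the levels were equal. The 95% intervals of the differences reached 0.16 to 0.43 on the log2 scale to either side. They lay inside a change of 1.5-fold in either direction for 27 of the 31 members (95.3% of all genes) and inside 2-fold for all 31. Those that reached past 1.5-fold were Cx3cr1, Ly86, Itgam and Mrc1, each of them on the lower side. RMA values understate folds, not equally for every probe set, so these bounds hold for the deposited scale. In bulk tissue, fewer cells of a type and less RNA per cell cannot be told apart.

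**Figure D1:**
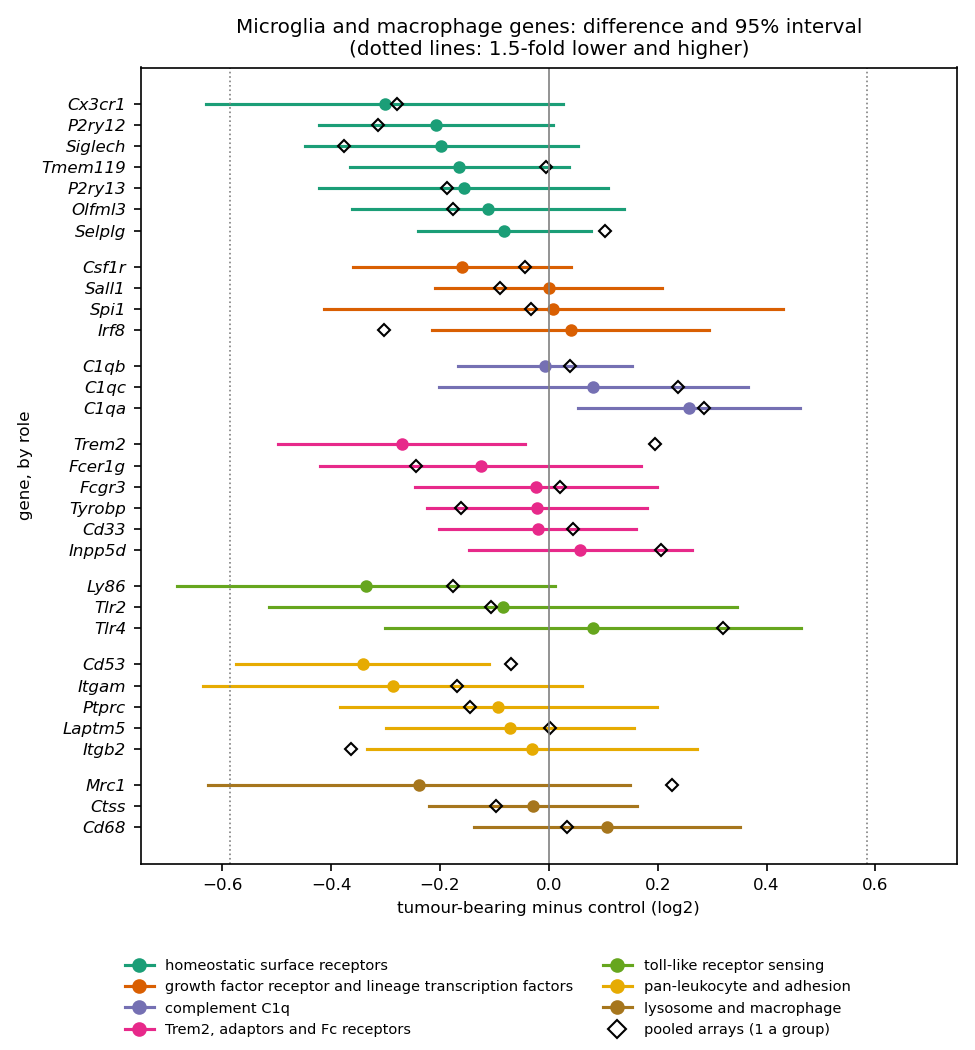
Points give the difference tumour-bearing minus control (log2, 5 against 3 individual arrays) for the 31 tested genes, grouped by role, with 95% intervals from limma as lines and the difference between the 2 pooled arrays as open diamonds. The intervals of Cd53, Trem2 and C1qa exclude 0 before adjustment, and all intervals stay inside 1 log2 unit.

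Homeostatic genes, which are high in resting microglia, had lower means in tumour-bearing mice for all 7 tested of 9 listed. Of these, 0 passed the threshold (limma adjusted p from 0.492 to 0.780, with 0 at an unadjusted p under 0.05). The median difference of the 7 was -0.16, and 54.5% of all genes tested had a lower mean. All 7 kept a lower mean under the 14 alternative settings that can move their differences, but these settings reuse the same individual arrays. Between the pools the median difference of the 7 was -0.19. Selplg alone was higher in the tumour-bearing pool (0.10), and Tmem119 differed by -0.0060. Cx3cr1, the receptor for the neuronal chemokine fractalkine, was at 6.97, 6.63 and 6.73 in controls and at 6.49, 6.60, 6.78, 6.42 and 6.08 in tumour-bearing mice. All tumour-bearing mice except mouse 3 were under every control, and mouse 3 lay above controls 2 and 3. The difference was -0.30 ± 0.15 SE (95% interval -0.63 to 0.027, limma adjusted p = 0.517). P2ry12, the ADP receptor that directs microglial processes towards injury, was at 5.98, 5.90 and 5.76 in controls and 5.69, 5.83, 5.67, 5.68 and 5.49 in tumour-bearing mice. Here mouse 2 alone reached into the control range, and the difference was -0.21 ± 0.10 SE (limma adjusted p = 0.492). Its chromosomal neighbour P2ry13, another ADP receptor gene with no other protein-coding gene between them in the RefSeq annotation, differed by -0.16 ± 0.12 SE; mice 1, 4 and 5 lay below every control and mouse 2 above all of them.

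Tmem119, a membrane protein gene used as a microglial marker, is named after its values were seen because its groups did not overlap. It was at 6.43, 6.38 and 6.41 in controls and 6.29, 6.38, 6.18, 6.33 and 6.02 in tumour-bearing mice, and mouse 2 missed the lowest control by less than the rounding shown. The difference was -0.16 ± 0.089 SE (95% interval -0.37 to 0.036, limma adjusted p = 0.565). Groups failed to overlap in the lower direction for 2 members, Tmem119 and Cd53 (6.45% of those tested), against 5.19% of all genes, and in the higher direction for 0, against 3.11%. Either way, 8.3% of all genes had groups that did not overlap. Siglech, a sialic acid-binding lectin gene, differed by -0.20 ± 0.11 SE, the secreted protein gene Olfml3 by -0.11 ± 0.11 SE and Selplg, the P-selectin ligand gene next to Tmem119, by -0.082 ± 0.071 SE. With 1 animal left out, single differences of this group ranged widely: -0.23 to -0.086 for P2ry13, -0.20 to -0.11 for Tmem119, -0.29 to -0.13 for Siglech, -0.16 to -0.043 for Olfml3 and -0.10 to -0.036 for Selplg. Among the untested genes of this group, Fcrls was at 4.07, 3.83 and 4.57 in controls and 3.96, 3.50, 3.86, 3.86 and 3.06 in tumour-bearing mice. Control 3 was the one array above the filter level, and with lower values set to that level the difference of -0.51 became -0.084. Gpr34, a lysophosphatidylserine receptor gene, lay at 3.03 to 3.52.

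Csf1r, the receptor for CSF1 and IL-34 on which microglial survival depends, was at 7.63, 7.55 and 7.59 in controls and 7.38, 7.63, 7.42, 7.52 and 7.19 in tumour-bearing mice. Mouse 2 was level with control 1 and the others lay below every control. The difference was -0.16 ± 0.089 SE (95% interval -0.36 to 0.040, limma adjusted p = 0.579), and -0.21 to -0.10 with 1 animal left out. The 3 lineage transcription factor genes sat closer to 0. Irf8, which encodes an interferon regulatory factor needed for the myeloid lineage, was at 4.91, 4.85 and 5.10 in controls and 4.80, 5.05, 4.96, 5.07 and 5.10 in tumour-bearing mice, a difference of 0.040 ± 0.11 SE with mouse 1 below the controls and the rest among them. Sall1, which encodes a microglial identity factor, differed by -0.00058 ± 0.093 SE and Spi1, which encodes PU.1, by 0.0083 ± 0.19 SE. For Spi1 mouse 4 was at 4.06, under the filter level, and the other 4 tumour-bearing mice were at 4.70 to 4.87, and without it the difference was 0.15. None of the 4 genes passed the threshold.

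PU.1 binds a GGAA-containing element in the promoters of many myeloid genes. The RefSeq promoter table (GRCm38.p6, 250 bases before to 50 after a gene's start) held windows for 25 of the 35 genes. The 8 letters GAGGAAGT were found on either strand in 4 of them (16.0%), namely C1qc, Cd53, Ctss and Inpp5d, and in 3.69% of the 27025 genes in the table. The composite element of PU.1 and an interferon regulatory factor was searched in the same way and found in 1, Cd68, against 3.16%. The shorter core GAGGAA, chosen after the longer form had been counted and contained in it, was in 17 of 25 (68.0%) against 31.3%, and the TATA box letters TATAAA were in 5 (20.0%) against 15.7%. A match describes letters, not binding. The stretches with the 8-letter match are shown because they hold the letters counted here, and their genes differed by -0.34 (Cd53), -0.029 (Ctss), 0.058 (Inpp5d) and 0.081 (C1qc). Trem2 (-0.27) is added as a member with the core match alone. Each is written 5′ to 3′ on the gene's strand, with the match in capitals, which reads ACTTCCTC or TTCCTC where it lies on the opposite strand. The C1qc, Inpp5d and Trem2 stretches end at the base before the start, and the Ctss and Cd53 stretches span it.
C1qc, chr4:136892915-136893164 (- strand): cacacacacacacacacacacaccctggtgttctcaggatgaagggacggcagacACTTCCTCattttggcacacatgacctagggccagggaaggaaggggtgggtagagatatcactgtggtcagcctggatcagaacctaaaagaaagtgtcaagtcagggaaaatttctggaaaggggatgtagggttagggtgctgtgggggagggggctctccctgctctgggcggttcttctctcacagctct
Inpp5d, chr1:87620212-87620311 (+ strand): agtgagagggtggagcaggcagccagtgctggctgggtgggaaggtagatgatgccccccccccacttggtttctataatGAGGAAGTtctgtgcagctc
Trem2, chr17:48346151-48346400 (+ strand): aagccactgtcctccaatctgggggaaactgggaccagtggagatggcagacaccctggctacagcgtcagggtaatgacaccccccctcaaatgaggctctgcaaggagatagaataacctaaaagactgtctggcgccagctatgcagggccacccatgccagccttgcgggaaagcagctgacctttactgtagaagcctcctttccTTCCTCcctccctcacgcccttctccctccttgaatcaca
Ctss, chr3:95526774-95526803 (+ strand): atgaaagttcACTTCCTCattgtggatgct
Cd53, chr3:106790129-106790157 (- strand): gaacactcagtctcACTTCCTCactcttc

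The C1q genes encode the chains of the first complement component, which in brain is made mainly by microglia and tags synapses and debris. The 3 genes lie side by side on chromosome 4 with no other protein-coding gene between them, and their differences were 0.26 for C1qa, -0.0067 for C1qb and 0.081 for C1qc. C1qa was at 6.25, 6.09 and 6.29 in controls and 6.49, 6.53, 6.23, 6.52 and 6.56 in tumour-bearing mice. Mice 1, 2, 4 and 5 lay above every control, while mouse 3 lay inside the control range. The means were 6.21 ± 0.10 (SD, n = 3) and 6.47 ± 0.13 (SD, n = 5) (log2 0.26 ± 0.091 SE, 95% interval 0.054 to 0.46, limma adjusted p = 0.382), which did not pass. C1qc was at 6.88, 6.42 and 6.68 in controls and 6.51, 6.71, 7.01, 6.75 and 6.72 in tumour-bearing mice, and the groups overlapped over most of their range (0.081 ± 0.13 SE, limma adjusted p = 0.874). It differed by -0.040 without control 2. C1qb was at 8.39, 8.13 and 8.24 and 8.19, 8.31, 8.26, 8.34 and 8.12, a difference of -0.0067 ± 0.071 SE (95% interval -0.17 to 0.15). Whether the 3 differences differ from each other was not tested.

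**Figure D2:**
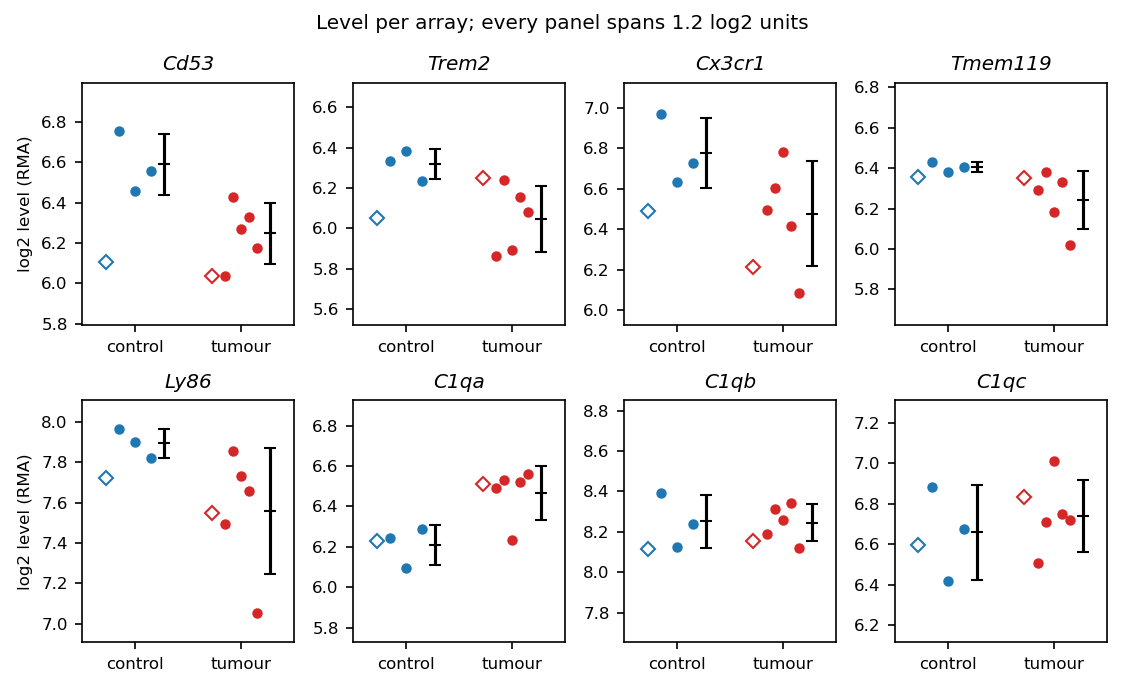
Log2 RMA levels per array of 8 genes, with controls in blue and tumour-bearing mice in red, filled points for individual mice, open diamonds for the pooled arrays, and the mean ± SD of the individual mice at the right of each group. C1qa has 4 of 5 tumour-bearing mice above every control, Cd53 and Tmem119 have no tumour-bearing mouse above a control, and C1qb overlaps.

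Trem2 is a lipid-sensing receptor that signals through the adaptor Tyrobp (DAP12) and is required for the phagocytic state of microglia. It was at 6.34, 6.38 and 6.24 in controls and 5.86, 6.24, 5.90, 6.16 and 6.08 in tumour-bearing mice. Mouse 2 lay just above control 3 and the other 4 were below every control. The means were 6.32 ± 0.074 (SD, n = 3) and 6.05 ± 0.16 (SD, n = 5) (log2 -0.27 ± 0.10 SE, 95% interval -0.50 to -0.043, limma adjusted p = 0.405), which did not pass. The pools had the opposite order, with 6.05 in the pooled controls and 6.25 in the pooled tumour-bearing mice. Its adaptor Tyrobp differed by -0.022 ± 0.090 SE (95% interval -0.22 to 0.18). Fcer1g, the common gamma chain of Fc receptors, was at 6.75, 6.59 and 6.35 in controls and 6.12, 6.58, 6.63, 6.53 and 6.34 in tumour-bearing mice, where mice 1 and 5 lay below every control and the other 3 among them (-0.13 ± 0.13 SE). The difference of Fcer1g was -0.031 without control 1. Fcgr3, a low-affinity IgG receptor gene, differed by -0.024 ± 0.10 SE and the lectin gene Cd33 by -0.021 ± 0.081 SE. Inpp5d, which encodes the phosphatase SHIP1 downstream of Fc receptors, differed by 0.058 ± 0.091 SE (0.016 to 0.10 with 1 animal left out). The intervals of Fcgr3, Cd33 and Inpp5d ran together from -0.25 to 0.26.

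Toll-like receptors sense microbial products, and Cd14 and Ly86 (MD-1) are accessory proteins of this system. Ly86, the partner of the receptor RP105, was at 7.96, 7.90 and 7.82 in controls and 7.49, 7.85, 7.73, 7.66 and 7.05 in tumour-bearing mice. Mouse 5 was far below the rest and mouse 2 lay between controls 3 and 2. The difference was -0.34 ± 0.15 SE (95% interval -0.68 to 0.012, limma adjusted p = 0.492), and -0.21 without mouse 5. Tlr2, the receptor for bacterial lipopeptides, was at 5.35, 4.87 and 4.58 in controls and 4.95, 4.97, 4.53, 4.70 and 5.09 in tumour-bearing mice. Control 1 was the highest array and mouse 3 the lowest, and the direction depended on both. The difference was -0.084 ± 0.19 SE, 0.12 without control 1, -0.0053 without mouse 3 and 0.071 without mice 3 and 4. Tlr4, the lipopolysaccharide receptor gene, was above the filter level on 4 of 8 arrays and differed by 0.081 ± 0.17 SE, or by 0.016 with values raised to that level. Cd14 was at 4.13, 3.63 and 3.82 in controls and 3.74, 3.51, 3.78, 3.82 and 3.64 in tumour-bearing mice, all under the level.

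Of the general leukocyte and adhesion genes, Cd53, a tetraspanin gene of all leukocytes, had the lowest p of the 31 members. It was at 6.75, 6.46 and 6.56 in controls and 6.03, 6.43, 6.27, 6.33 and 6.18 in tumour-bearing mice. Every tumour-bearing mouse lay below every control, with mouse 2 the closest and mouse 1 the lowest. The means were 6.59 ± 0.15 (SD, n = 3) and 6.25 ± 0.15 (SD, n = 5), so controls were 1.27-fold higher (log2 -0.34 ± 0.10 SE, 95% interval -0.57 to -0.11, limma adjusted p = 0.313, and 0.157 to 0.833 over the alternative settings). Itgam (CD11b), the alpha chain of complement receptor 3, was at 5.61, 5.65 and 5.80 in controls and 5.22, 5.82, 5.49, 5.36 and 5.10 in tumour-bearing mice. Mouse 2 was above all controls and the other 4 were below all of them (-0.29 ± 0.16 SE, limma adjusted p = 0.562). Itgb2 (CD18), the beta chain that pairs with Itgam, differed by -0.031 ± 0.13 SE, Laptm5, a lysosomal membrane protein gene of leukocytes, by -0.071 ± 0.10 SE (0.034 without control 3, -0.20 without control 1), and Ptprc (CD45) by -0.093 ± 0.13 SE (-0.17 to -0.054 with 1 animal left out). Aif1 (IBA1), a cytoskeletal protein used to stain microglia, was at 3.83, 4.28 and 3.77 in controls and 3.94, 3.95, 3.74, 3.86 and 3.84 in tumour-bearing mice, under the level on all 8 arrays, so it was not tested.

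Mrc1 (CD206), a mannose receptor of perivascular and other border macrophages, was at 5.04, 5.14 and 5.17 in controls and 4.57, 5.24, 5.06, 4.96 and 4.55 in tumour-bearing mice. Mice 1, 4 and 5 lay below every control, mice 1 and 5 by more than the control range, and mouse 2 was the highest array. The difference was -0.24 ± 0.17 SE (95% interval -0.63 to 0.15, limma adjusted p = 0.677), and -0.33 to -0.16 with 1 animal left out. Of 12 further border macrophage genes, 6 were tested, 3 had higher and 3 lower means, and none passed. Stab1, a scavenger receptor gene, differed most: it was at 5.72, 5.67 and 5.77 in controls and 5.55, 5.47, 5.46, 5.35 and 5.31 in tumour-bearing mice, without overlap (-0.29 ± 0.088 SE, limma adjusted p = 0.308). Cd163, another scavenger receptor gene of these cells, was under the filter level on all 8 arrays. Cd68, a lysosomal glycoprotein gene of phagocytes, was at 5.86, 5.74 and 5.93 in controls and 5.70, 6.03, 5.87, 6.03 and 6.14 in tumour-bearing mice. Mice 2, 4 and 5 lay above every control and mouse 1 below every control (0.11 ± 0.11 SE, limma adjusted p = 0.786, and 0.054 to 0.17 with 1 animal left out). Ctss, the lysosomal protease cathepsin S, differed by -0.029 ± 0.085 SE (95% interval -0.22 to 0.16).

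The tumour-bearing mice differed among themselves. The median over the 31 members, each set relative to its control mean, was -0.14 in mouse 1, 0.040 in mouse 2, -0.046 in mouse 3, -0.094 in mouse 4 and -0.18 in mouse 5, beside 0.041, -0.044 and -0.00046 in controls 1 to 3. Mouse 2 was thus level with control 1, and mice 1 and 5 were the lowest. Of the 31 members, 11 were lowest of the 8 arrays in mouse 5 and 9 in mouse 1, while 6 were highest in mouse 2 and 10 in control 1. For the 7 homeostatic genes the medians were -0.28, -0.027, -0.027, -0.20 and -0.30 in mice 1 to 5. The median difference of the tested members, -0.082 over all 31, depended on single animals. It was -0.054 without control 1, -0.10 without control 2 and -0.089 without control 3. Among tumour-bearing mice it was -0.051 without mouse 1, -0.11 without mouse 2, -0.066 without mouse 3, -0.050 without mouse 4 and -0.060 without mouse 5. Without both mice 3 and 4, where 30 members were tested, it was -0.048.

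Markers of other cells and of neighbouring tissue differed between the same arrays. The mean of 10 tested oligodendrocyte markers, relative to controls, was -0.41, -0.082, -0.61, -0.35 and -0.76 in mice 1 to 5, and that of 8 midbrain markers was -0.82, -0.10, -1.43, -0.77 and -0.82. Mouse 2 was nearest to the controls for both lists and had the highest median of the microglial genes. Mouse 5 was lowest for the oligodendrocyte list and for the microglial genes, while the lowest midbrain value, in mouse 3, went with a microglial median of -0.046. All 10 oligodendrocyte and all 8 midbrain markers tested had lower means in tumour-bearing mice, with 0 called. At an unadjusted limma p under 0.05 there were 7 of the 10 and 7 of the 8, against 10.3% of all genes. The largest differences were -0.95 ± 0.25 SE for Opalin, of myelin, and -1.58 ± 0.60 SE for Slc6a3, the dopamine transporter gene. Hypothalamic markers had higher means for 11 of 13 (median 0.21, 5 at an unadjusted p under 0.05, 0 called by limma). Their mean relative to controls was -0.060 to 0.068 in controls and 0.053 to 0.41 in tumour-bearing mice, and Npy, with the largest difference (0.84 ± 0.23 SE), did not overlap between the groups. Pituitary markers were highest in mice 3 and 4 (-0.27 to 0.25 in controls and 0.13 to 2.10 in tumour-bearing mice; Gh differed by 2.91 ± 1.42 SE). The part of these lists in the microglial values was not tested.

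**Figure D3:**
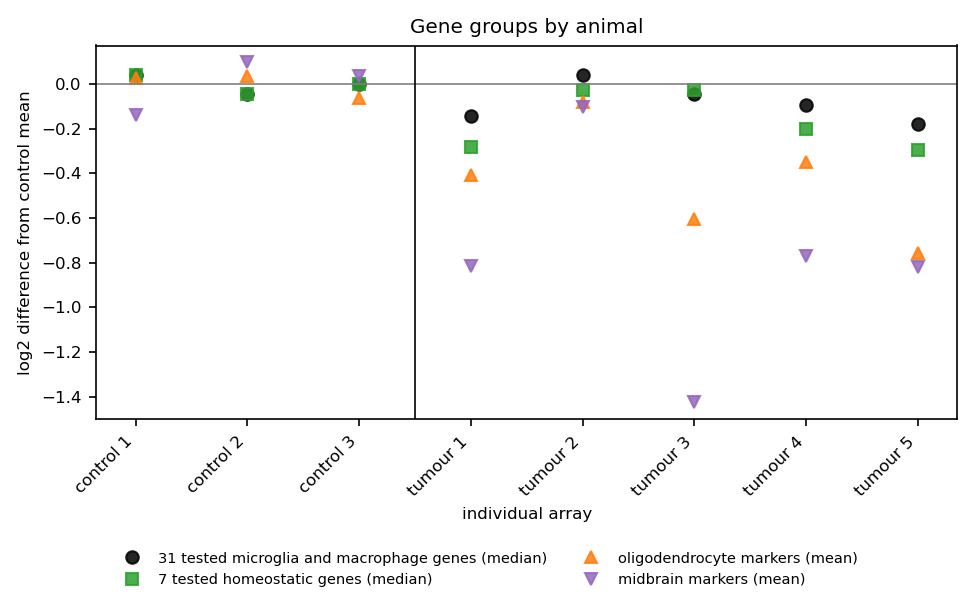
For each individual array, the median of all tested microglia and macrophage genes, the median of the tested homeostatic genes, and the means of oligodendrocyte and midbrain markers are plotted as log2 differences from the mean of the 3 controls. Mouse 2 lies near 0 for every group, and mice 1 and 5 have the lowest medians of the microglial genes, -0.14 and -0.18.

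Markers of blood leukocytes were mostly under the filter level. Of the genes with a probe set of their own, 10 of 11 neutrophil markers, all 10 T and NK cell markers, 6 of 7 B cell markers and 4 of 6 monocyte markers were under the filter level on all 8 arrays. Among these were S100a8 (3.23 in controls, 3.38 in tumour-bearing mice), Ccr2 (2.21 and 2.38) and Cd3e (3.08 and 3.19). The tested neutrophil marker, Mmp9, differed by 0.030 ± 0.17 SE. Of 2 tested monocyte markers 1 had a higher and 1 a lower mean, the latter being Fn1 (-0.19 ± 0.16 SE), which other cells also make. Both red blood cell markers tested had higher means in tumour-bearing mice (median difference 1.11). Alas2, the heme synthesis enzyme of red cells, was at 5.21, 5.02 and 4.59 in controls and 6.02, 5.89, 7.77, 6.43 and 5.62 in tumour-bearing mice, without overlap and with mouse 3 the highest (1.41 ± 0.42 SE, limma adjusted p = 0.306); their part in the microglial values was not tested. Of the other brain cell markers none was called. Astrocyte markers went both ways (10 tested, 5 higher and 5 lower, median 0.0052), with the largest difference in Aqp4 (-0.51 ± 0.11 SE). Of these astrocyte markers 4 were at an unadjusted limma p under 0.05, against 10.3% of all genes. Endothelial markers (9 tested, 2 higher and 7 lower, median -0.021) had Tek as the largest (-0.26 ± 0.11 SE) and neuronal markers (9 tested, 3 higher and 6 lower, median -0.022) Nefl (-0.35 ± 0.063 SE). Choroid plexus markers were mostly higher (5 tested, 4 higher and 1 lower, median 0.10), and Otx2, with the largest difference, was the one lower (-0.44 ± 0.20 SE).

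Further genes of microglial biology, from 9 other lists, also held 0 calls in either direction. Of the disease-associated microglia list, genes that phagocytic microglia raise, 15 of 24 were tested, 6 with higher and 9 with lower means (median -0.016). At an unadjusted limma p under 0.05 there were 3 of the 15, against 10.3% of all genes. The mean of the 15, relative to controls, was -0.0048 to 0.0063 in controls and -0.12 to -0.041 in tumour-bearing mice. The list's inducible members Clec7a, Cst7 and Itgax were under the filter level on all 8 arrays, at 3.28, 3.42 and 2.66 in controls and 3.34, 3.41 and 2.63 in tumour-bearing mice. The largest difference was in Igf1, a growth factor gene that neurons and other cells also express, at 6.01, 6.09 and 6.25 in controls and 5.85, 5.90, 5.78, 5.81 and 5.54 in tumour-bearing mice, without overlap (-0.34 ± 0.10 SE, limma adjusted p = 0.305). Other genes of the microglial signature (16 of 22 tested, 6 higher and 10 lower) had a median of -0.045, with 3 at an unadjusted limma p under 0.05. Crybb1, a crystallin gene of immature microglia, differed most (0.24 ± 0.10 SE). Mertk, a phagocytic receptor gene of astrocytes and microglia on the signature and complement lists, was at 8.21, 8.11 and 8.12 in controls and 8.55, 8.47, 8.23, 8.43 and 8.24 in tumour-bearing mice, without overlap (0.24 ± 0.077 SE, limma adjusted p = 0.343).

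In the toll-like receptor pathway (11 of 16 tested, 6 higher and 5 lower) the largest difference was in Lbp, the lipopolysaccharide-binding protein gene and an acute-phase gene in liver, at 7.62, 6.999 and 7.46 in controls and 7.88, 7.71, 7.95, 7.93 and 7.63 in tumour-bearing mice. All tumour-bearing mice lay above every control, mouse 5 by the least (0.46 ± 0.13 SE, limma adjusted p = 0.299, and 0.28 without control 2). Ligands that neurons and glia present to microglia (7 of 7 tested, 5 higher and 2 lower) had a median of 0.025, with Cd200 differing most (0.052 ± 0.059 SE). Other lineage regulators (8 of 9 tested, 6 higher and 2 lower) had Mef2c as the largest difference (0.14 ± 0.15 SE), and Trem2 and Fc receptor signalling genes (5 of 13 tested, 3 higher and 2 lower) had Fcgr1 (-0.16 ± 0.13 SE). Of the other complement and phagocytosis genes (6 of 12 tested, 2 higher and 4 lower) Itgam has been given above. Of 15 genes of inflammatory output 9 were under the level on all 8 arrays, among them Il1b and Tnf, at 3.32 and 3.50 in controls and 3.55 and 3.51 in tumour-bearing mice. Of the 6 tested, 3 had higher and 3 lower means (median 0.014). The largest difference was in Socs3, the feedback inhibitor of cytokine receptors, above the level in 1 of 3 controls and 4 of 5 tumour-bearing mice. Socs3 differed by 0.44 ± 0.16 SE, or by 0.27 with values raised to the level. Of 10 cell division genes 7 were under it on all 8 arrays, and Ccna2 differed by 0.15 ± 0.092 SE.

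The pooled arrays, with 1 array a group and hence no test, gave a median difference of -0.069 over the 31 members, with 19 below 0 and 12 above (52.7% of all genes were below 0). The difference was -0.38 for Siglech, -0.36 for Itgb2, -0.31 for P2ry12, -0.30 for Irf8 and -0.28 for Cx3cr1 at one end and 0.32 for Tlr4, 0.28 for C1qa, 0.24 for C1qc and 0.23 for Mrc1 at the other. C1qa was at 6.23 in the pooled controls and 6.51 in the pooled tumour-bearing mice. Cd53 was at 6.10 in the pooled controls and 6.04 in the pooled tumour-bearing mice, so the control pool was under all 3 individual controls. That was the case for 15 of the 31 members (48.4%) and for 30.8% of all genes, while the control pool lay above all 3 for 5 members (16.1%) and 32.0% of all genes. The labels give no processing batch for any of the arrays.

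**Figure D4:**
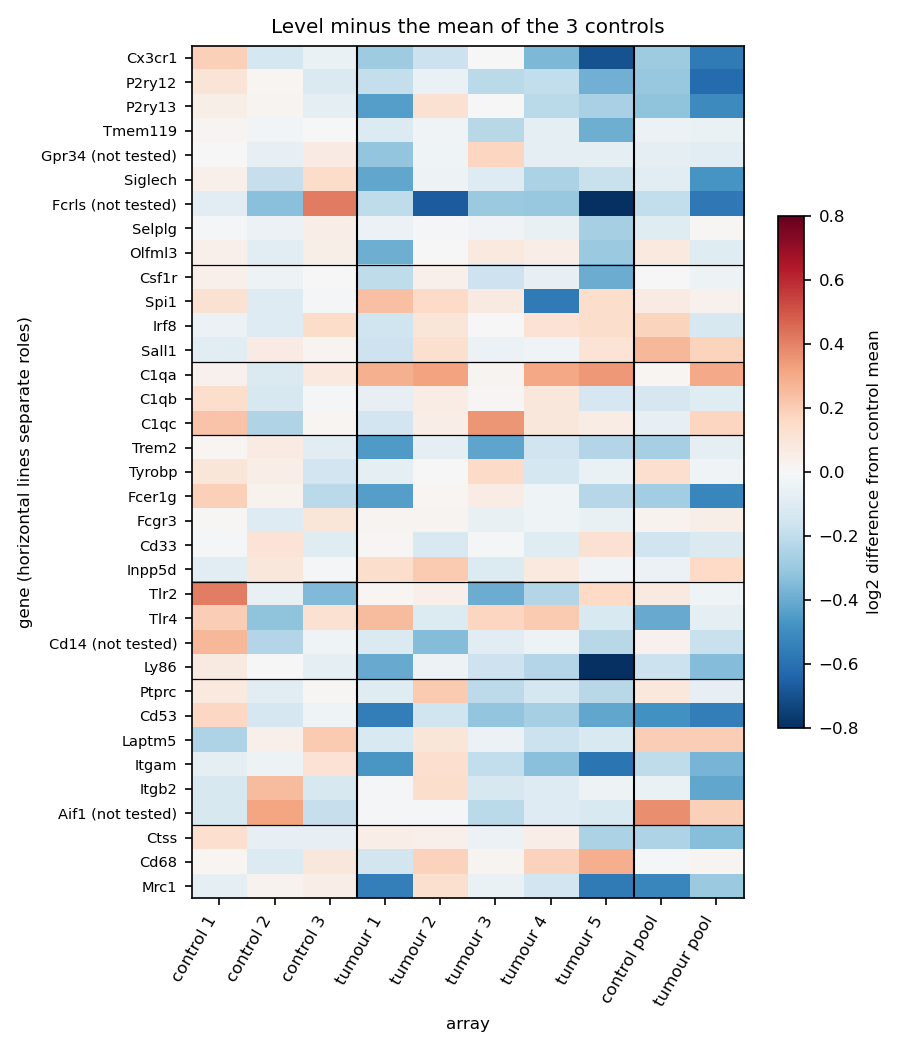
Rows are the 35 genes by role and columns the 10 arrays; colour gives each log2 level minus the mean of the 3 individual controls, from blue (lower) to red (higher), and cells beyond the ends of the scale take its end colour. Among single mice, 1 and 5 are the bluest for Cd53, Itgam and Mrc1, the C1qa row is red in 4 of 5 tumour-bearing mice, and both pools are blue for P2ry12, P2ry13 and Cd53.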

How the data were processed

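Biotin-labelled hypothalamus RNA was hybridised to whole-transcript arrays, 1 array per mouse or pool. The authors deposited log2 values; RMA is named in the submitters' processing notes, its version, probe set definition and build are not given in the sources used here, and the log2 scale was read from the range of values. RMA brings arrays to a similar overall distribution, so a change common to all transcripts may not be visible. The table held 35556 probe sets; the platform annotation paired 21218 with 1 gene and 1881 with several. The 22837 probe sets passing the filter were fitted with limma 3.58.1 in R 4.3.3 (lmFit, eBayes with intensity trend), 5 tumour-bearing against 3 control mice, with Benjamini-Hochberg adjustment over all of them, and counted by gene (brightest probe set). The number of arrays limits precision. The fit was tested on simulated data with changes larger than those of any member, so that test does not cover differences of the members' size. Values per array are given for the 2 tested members of each role with the largest difference, and the tested gene that differed most in each other list is named with its difference, unless it was itself a member; other genes, and values per array of genes outside the members, were chosen after the values were seen. The members and lists were chosen with earlier results of these data known. Alternatives were the filter, variance model, array weights, normalization, replicate block, pools as samples, mean of probe sets, 1-gene probe sets alone and leaving out animals. Promoter sequences are RefSeq's (GRCm38.p6). Figures used matplotlib 3.10.9 in Python 3.11.15.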

Additional observations from a re-analysis of the deposited data

Results flagged for a closer look

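In 66 sets of 5 tumour-bearing values, 6 had 1 animal set apart from the other 4 by Dixon's test at the 95% level, where chance gives about 5%. Selplg was at 6.66 in mouse 5, with the next lowest at 6.86. Spi1 was at 4.06 in mouse 4, with the next at 4.70. C1qa was at 6.23 in mouse 3, with the next at 6.49. Ptprc was at 4.98 in mouse 2, with the next highest at 4.67. Among other genes, Otx2 was at 4.26 in mouse 5, with the next lowest at 4.91, and Il1b, under the filter level, was at 3.82 in mouse 1, with the next highest at 3.51. No animal was set apart for more than 2 of these genes.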

How the results depend on the processing

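No member was called under any of the 20 alternatives (lowest limma adjusted p = 0.157, Cd53). Of the 31, 18 kept the sign of their difference under the 14 that can move it (6 leave every member's difference as it was). Members with a lower mean numbered 20 to 24 with the filter on, 22 with median centring and 23 with quantile normalization. The members' median difference was -0.11 to -0.050 with 1 animal left out, and in the pools -0.089 over all 35 genes. Of all genes 10 were called, 17 with array weights, 3 with no filter, 3 with no intensity trend, 68 with only probe sets of 1 gene, 0 without tumour-bearing mice 3 and 4, and 2 to 55 with 1 animal left out. With the replicate number as a block (replicate block) 0 genes were called and the members' median was -0.033. Tumour-bearing mice 4 and 5 have no control of their number, so this difference rests on replicates 1 to 3. The labels do not say whether same-numbered mice shared more than a number. Deviations of same-numbered mice correlated at -0.0020 to 0.0089, which cannot settle it. Differences near 0 changed sign: with array weights, -0.0089 (Spi1), 0.064 (C1qb), 0.0028 (Fcgr3), 0.023 (Ctss) and -0.070 (Mmp9); with median centring, 0.010 (Sall1) and 0.0040 (C1qb); with the pools as samples, -0.0041 (Spi1), -0.032 (Irf8), 0.012 (C1qb) and 0.0038 (Cd33); with quantile normalization, 0.0080 (Sall1); with the replicate block, -0.021 (Irf8), 0.0025 (C1qb), 0.027 (Tyrobp) and 0.017 (Ctss); without tumour-bearing mice 3 and 4, 0.024 (Sall1), -0.012 (C1qc), 0.0033 (Cd33), 0.071 (Tlr2), 0.026 (Itgb2) and -0.0047 (Cd200). With 1 animal left out the ranges that crossed 0 were C1qb -0.069 to 0.063, Tyrobp -0.10 to 0.027, Tlr2 -0.26 to 0.12, Ctss -0.063 to 0.037, Mmp9 -0.061 to 0.11, Spi1 -0.049 to 0.15, Irf8 -0.011 to 0.11, Sall1 -0.046 to 0.040, C1qc -0.040 to 0.19, Cd33 -0.068 to 0.034, Tlr4 -0.079 to 0.18, Itgb2 -0.094 to 0.094, Fcgr3 -0.076 to 0.025, Laptm5 -0.20 to 0.034, Fn1 -0.33 to 0.0081. Of the other genes named, these passed under alternatives alone: Nefl in 3 (limma adjusted p = 0.0164 to 0.0282) and Aqp4 in 1 (limma adjusted p = 0.0219). The cause was not tested, and log2 signal near the filter level limits Spi1, Tlr4, Fcrls, Socs3 and Itgb2, among others.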
